A study of Mus musculus with 12 samples.

Results

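The collagen genes followed here lie outside the fibrillar and basement membrane classes: Col6a1, Col6a2, Col6a3, Col7a1, Col8a1, Col12a1, Col14a1 and Col16a1. They were chosen by symbol, with earlier results of these data known, and are 8 of the 40760 genes in the count table. All 8 passed the filter on low counts, which 17418 genes passed. The data are bulk RNA-seq of cells sorted by flow cytometry from the lungs of male mice for CD140a, the protein product of Pdgfra, which marks most lung fibroblasts. There were 12 libraries, 3 in each of 4 groups: wild-type (WT) mice given vehicle, Pear1-/- mice given vehicle, WT mice given bleomycin (bleo), and Pear1-/- mice given bleo. Bleo is a drug that injures the lung and is followed by scarring, and PEAR1 is a cell surface receptor. The Pear1-/- mice carried a knockout-first allele in all cells, in which a cassette with a splice acceptor and a stop for transcription lies in an intron of Pear1. The mice were of C57BL/6 background and, by the general statement of the study, young adults. The bleo dose, the days between bleo and sorting and the number of mice per library are not given for these libraries in the sources used here, so a p-value measures the spread between libraries, which may be technical.

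Collagen VI is built from chains encoded by Col6a1, Col6a2 and Col6a3, which assemble into beaded microfilaments around cells. Collagen VII, from Col7a1, forms the anchoring fibrils that tie a basement membrane to the connective tissue under it. Collagens XII, XIV and XVI, from Col12a1, Col14a1 and Col16a1, belong to the fibril-associated collagens with interrupted triple helices, which sit on the surface of fibrils made of collagen I or its relatives. Collagen VIII, from Col8a1, is a short-chain collagen that forms networks and belongs to none of these 3 classes. All of these chains share a stretch in which glycine returns at a fixed step, with a pair of other residues between, the only residue small enough for the centre of a triple helix.

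This repeat can be read in the coding sequence, where glycine is written GGN. The stretches below are shown because they carry the feature that puts these genes in 1 family, and because they set the 3 chains of collagen VI and the pair Col12a1 and Col14a1, which moved in opposite directions, side by side. Each line is the start of the gene's longest uninterrupted run of glycine codons with a pair of other codons between them, in the annotated transcript with introns removed, with those codons in capitals.
Col6a1: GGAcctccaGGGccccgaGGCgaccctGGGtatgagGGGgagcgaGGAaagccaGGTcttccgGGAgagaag
Col6a2: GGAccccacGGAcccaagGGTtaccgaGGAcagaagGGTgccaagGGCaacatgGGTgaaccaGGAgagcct
Col6a3: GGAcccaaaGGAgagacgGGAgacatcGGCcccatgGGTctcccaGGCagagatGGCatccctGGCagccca
Col12a1: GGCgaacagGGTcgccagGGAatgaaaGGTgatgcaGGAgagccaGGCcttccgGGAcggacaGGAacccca
Col14a1: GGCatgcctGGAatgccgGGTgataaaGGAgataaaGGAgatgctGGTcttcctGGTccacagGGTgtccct
In the mouse build GRCm38 with GENCODE M21 annotation these 5 stretches lie within chr10:76719641-76720996, chr10:76611966-76613290, chr1:90791942-90792445, chr9:79612441-79613769 and chr15:55471708-55473288. The first 4 are on the minus strand and that of Col14a1 is on the plus strand. The longest run held 87 triplets in both Col6a1 and Col6a2, 45 in Col6a3, 75 in Col7a1, 61 in Col8a1, 52 in Col16a1, and 32 in both Col12a1 and Col14a1. Runs of at least 10 triplets covered 7.63% of the codons of Col12a1, 10.1% of Col6a3, 13.0% of Col14a1, 29.5% of Col6a1, 31.9% of Col6a2, 47.2% of Col7a1, 52.3% of Col8a1 and 55.0% of Col16a1. Most codons of 6 of the 8 genes thus lay outside such runs. The genes varied in their exon lengths. Of the coding exons that are neither first nor last, 76 of 116 in Col7a1, 45 of 67 in Col16a1 and 18 of 25 in Col6a2 had a length divisible by 9, the length of 1 glycine triplet in bases. The counts were 19 of 33 in Col6a1 and 19 of 41 in Col6a3, and lower at 13 of 45 in Col14a1 and 14 of 63 in Col12a1, while Col8a1 has 0 such exons. A length divisible by 9 was found for 14.3% of the 159326 such exons over all genes. Exons of 63 bases, which are 0.609% of all such exons, numbered 7 in Col6a1, 8 in Col6a2, 7 in Col6a3 and 7 in Col7a1, and there were none in Col12a1 or Col14a1.

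Col6a1 (ENSMUSG00000001119, chr10:76708792-76726168) and Col6a2 (ENSMUSG00000020241, chr10:76595762-76623630) are neighbours on the minus strand with 85161 bases between them, while Col6a3 (ENSMUSG00000048126, chr1:90765923-90843971) is on another chromosome. The bases before the RefSeq start of each of the 3 chains (build GRCm38.p6, minus strand) are shown because their counts were compared as parts of 1 protein. Capitals mark matches to GGGCGG or its reverse complement CCGCCC. The windows are chr10:76726169-76726294 for Col6a1, chr10:76623631-76623880 for Col6a2 and chr1:90843972-90844221 for Col6a3.
Col6a1: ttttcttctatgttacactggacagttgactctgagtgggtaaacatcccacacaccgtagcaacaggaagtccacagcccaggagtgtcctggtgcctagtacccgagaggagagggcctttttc
Col6a2: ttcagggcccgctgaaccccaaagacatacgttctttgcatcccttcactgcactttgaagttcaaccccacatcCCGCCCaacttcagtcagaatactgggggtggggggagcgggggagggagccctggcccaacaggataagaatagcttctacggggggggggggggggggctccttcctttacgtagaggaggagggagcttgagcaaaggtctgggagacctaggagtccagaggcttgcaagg
Col6a3: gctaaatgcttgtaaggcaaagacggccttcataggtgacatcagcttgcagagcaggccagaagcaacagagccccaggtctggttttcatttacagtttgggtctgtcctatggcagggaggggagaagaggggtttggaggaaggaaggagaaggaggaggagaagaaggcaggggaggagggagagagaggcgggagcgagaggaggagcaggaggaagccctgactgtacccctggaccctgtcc
The RefSeq start of Col6a1 lies inside the GENCODE gene, so its window was cut at the GENCODE start. The 124 bases left out hold the only TGANTCA of its 250 bases, a form of the AP-1 motif, here in capitals within chr10:76726117-76726145.
Col6a1 match: tgctgatgctgTGACTCActcagctttga
Of the 8 genes, 6 had a RefSeq window of 250 bases before a start, and Col6a2 had windows for 2 starts. GGGCGG was searched on both strands and was found for 4 of these 6 genes, Col6a2, Col7a1, Col8a1 and Col16a1, and in 32.7% of all 32851 windows. In Col6a2 matches to it overlapped each other in the window of the other start, and no match overlapped another motif. TGANTCA was found for 1 of 6 genes and in 6.75% of all windows. CAGACA was found for Col7a1 and Col8a1 and in 17.1% of all windows. TATAA was found for 0 of 6 genes and in 22.8% of all windows.

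Between 6702948 and 10447101 reads were counted per library, and a floor of 3 counts corresponded to 0.287 to 0.448 CPM (counts scaled to the library total), which covers counting error only. A pair of features of the libraries touch the results. The first is WT vehicle replicate 2, which differed from replicates 1 and 3 of its group by a chi-square per degree of freedom of 21.2 and 21.8, where 1 is counting noise, and from the 3 Pear1-/- vehicle libraries by 1.73 to 2.67. Replicates 1 and 3 differed by 1.58, and pairs within Pear1-/- vehicle by 1.44 to 4.82. Pairs within each bleo group differed by 1.35 to 1.49, near counting noise. The p-values between the bleo groups thus rest on a small spread, which may be technical. The second is Pear1 itself, at a mean of 546.5 ± 28.8 normalized counts (SD over 3 libraries) for WT vehicle and 519.7 ± 24 in the vehicle libraries labelled Pear1-/-, then 254 ± 14.0 in WT bleo and 357 ± 14.1 in those labelled Pear1-/- bleo. The cassette with its stop for transcription could lower this count, but it was close in the vehicle groups and higher in Pear1-/- bleo than in WT bleo. The count thus gave no support to the genotype labels. A count over the whole gene does not separate exons before the cassette from those after it, so the allele was not tested. The labels were kept as deposited.

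After bleo, 6 of the 8 genes were higher and 1 was lower in the libraries labelled Pear1-/- than in WT. A gene was counted here when its adjusted p was under 0.05 and its fold change above 2 in edgeR's quasi-likelihood test, adjusted by Benjamini-Hochberg over the 17418 genes. The share of all genes counted was 6.26% higher and 8.76% lower. The 6 higher genes were Col6a1, Col6a2, Col6a3, Col7a1, Col12a1 and Col16a1, and the lower one was Col14a1. The median log2 fold change was 1.11 over the 8 genes and -0.01 over all genes. In WT, bleo against vehicle gave 1 gene higher (Col8a1) and 2 lower (Col6a1 and Col6a2), beside 10.5% and 23.5% of all genes. With the adjusted p alone, 3 were higher and 5 lower, beside 31.4% and 36.6%. In the libraries labelled Pear1-/-, bleo against vehicle gave 5 higher (Col6a3, Col7a1, Col8a1, Col12a1 and Col16a1) and 1 lower (Col14a1), beside 8.38% and 19.4% of all genes. Between the vehicle groups 0 of 8 were counted, beside 0.0344% of all genes higher and 2.33% lower, and Col6a3 alone had an adjusted p under 0.05, beside 4.5% of all genes. These comparisons share groups, so their counts are not independent of each other. The sorted cells were measured in bulk, in which fewer cells of a type and less RNA per cell cannot be told apart.

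**Figure D1:**
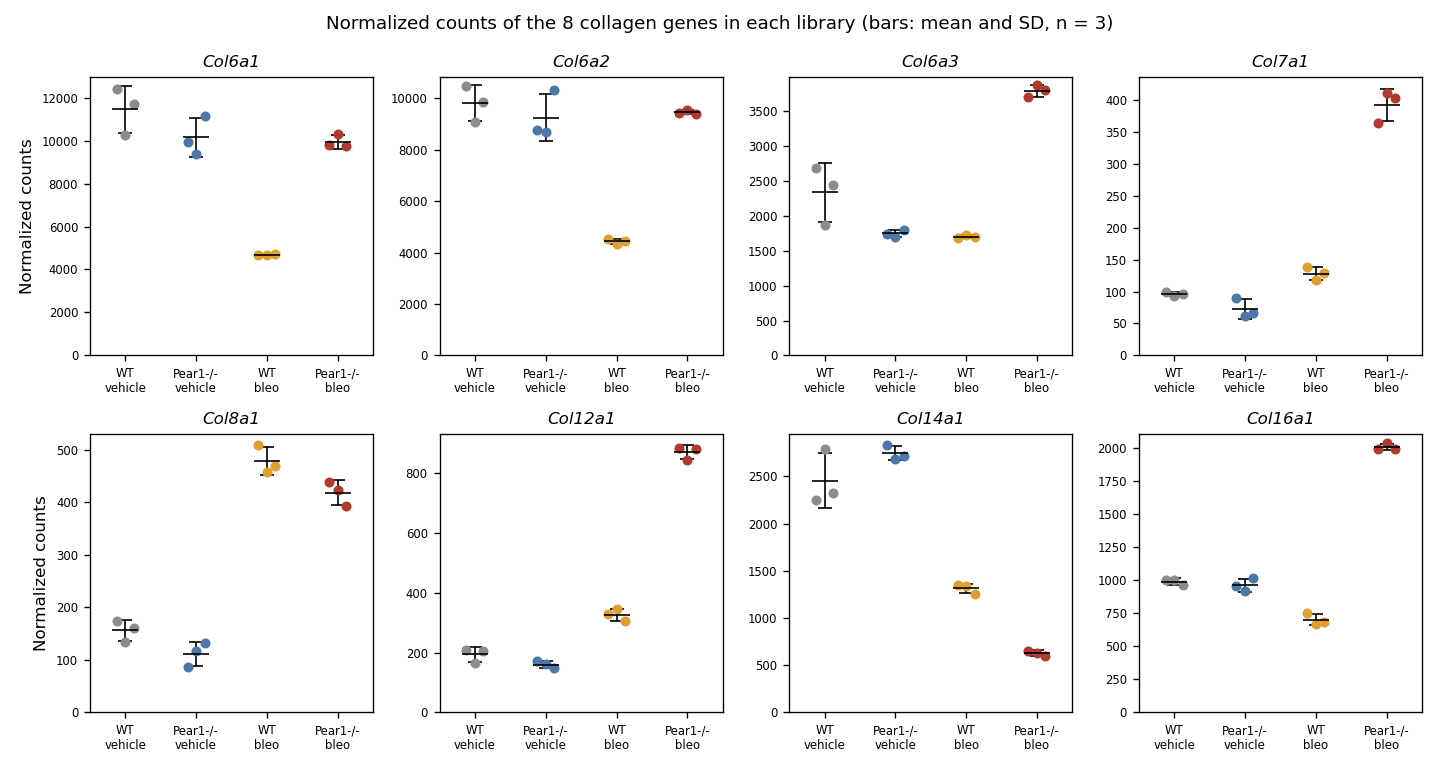
Normalized counts (deposited counts divided by the size factor of the library) of each gene on linear axes from 0, with a point for each of the 12 libraries and bars for the mean and SD of 3. Col6a1 and Col6a2 are low in WT bleo only, Col7a1, Col12a1 and Col16a1 are highest in Pear1-/- bleo, Col8a1 is high in both bleo groups, and Col14a1 steps down from vehicle to WT bleo to Pear1-/- bleo.

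Col6a1 had normalized counts of 12394, 10238 and 11725 (WT vehicle), 9956, 9373 and 11160 (Pear1-/- vehicle), 4673, 4662 and 4743 (WT bleo) and 9798, 10318 and 9731 (Pear1-/- bleo). The 3 WT bleo libraries stood below all 9 others, which overlapped between their groups. Its log2 fold change in edgeR was -1.28 for bleo in WT (SE 0.079 with adjusted p = 1.61e-09) and 1.07 for Pear1-/- over WT after bleo (SE 0.078 with adjusted p = 3.71e-08). For bleo in the libraries labelled Pear1-/- it was -0.03, with a 95% interval from -0.19 to 0.14 and edgeR's adjusted p = 0.779.

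Col6a2 had normalized counts of 10488, 9095 and 9866 (WT vehicle), 8757, 8678 and 10324 (Pear1-/- vehicle), 4511, 4337 and 4463 (WT bleo) and 9418, 9547 and 9405 (Pear1-/- bleo). Its libraries fell in the same way as those of Col6a1, with WT bleo alone below the rest. The log2 fold change was -1.13 for bleo in WT (SE 0.074 with adjusted p = 3.33e-09 in edgeR, and a value of -0.996, short of a fold of 2, with no filter on low counts), 0.04 for bleo in Pear1-/- (95% interval -0.12 to 0.19, adjusted p = 0.689), and 1.08 between the bleo groups (SE 0.074 with adjusted p = 1.94e-08).

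Col6a3, the chain that is several times longer than its partners at its globular ends, did not have this pattern. Its normalized counts were 2687, 1872 and 2449 (WT vehicle), 1747, 1703 and 1796 (Pear1-/- vehicle), 1686, 1731 and 1695 (WT bleo) and 3702, 3873 and 3801 (Pear1-/- bleo). The Pear1-/- bleo libraries were above all others, and WT vehicle replicate 2 lay nearer to the Pear1-/- vehicle libraries than to the other 2 of its group. The log2 fold change for bleo was 1.12 in Pear1-/- (SE 0.10 with adjusted p = 1.99e-07 in edgeR) and -0.44 in WT (SE 0.10 with adjusted p = 0.00118). The WT value was -0.12 (adjusted p = 0.125 in edgeR) when replicate 2 stood alone for WT vehicle, a fit in which the spread comes from the other 3 groups only, and -0.52 without it. Between the bleo groups the log2 fold change was 1.14 (SE 0.10 with adjusted p = 3.05e-07 in edgeR).

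The ratio between the chains was taken within each library, where it does not depend on the scaling between libraries. Per base of annotated exon, Col6a3 was 0.119, 0.0979 and 0.115 of the mean of Col6a1 and Col6a2 for WT vehicle, 0.0945, 0.0953 and 0.0845 for Pear1-/- vehicle, 0.185, 0.194 and 0.186 for WT bleo and 0.195, 0.197 and 0.201 for Pear1-/- bleo. The ratio was therefore higher in each of the 6 bleo libraries than in each of the 6 vehicle libraries, 1.71-fold in WT and 2.16-fold in Pear1-/-. Between the bleo groups it differed by 1.05-fold, without overlap. Each of these comparisons of 3 with 3 libraries gave a two-sided exact permutation p = 0.1, the smallest such a design can give, and 0.136 after adjustment over the 76 ratio comparisons made. Col6a1 was 2.21 times Col6a2 per length in the WT vehicle group, 2.09 in that of Pear1-/- vehicle, 2.01 in that of WT bleo and 2.0 in that of Pear1-/- bleo. The Col6a1 to Col6a2 ratio overlapped between the bleo groups, where it differed by 0.994-fold (exact permutation p = 0.9, and 0.9 after adjustment).

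**Figure D2:**
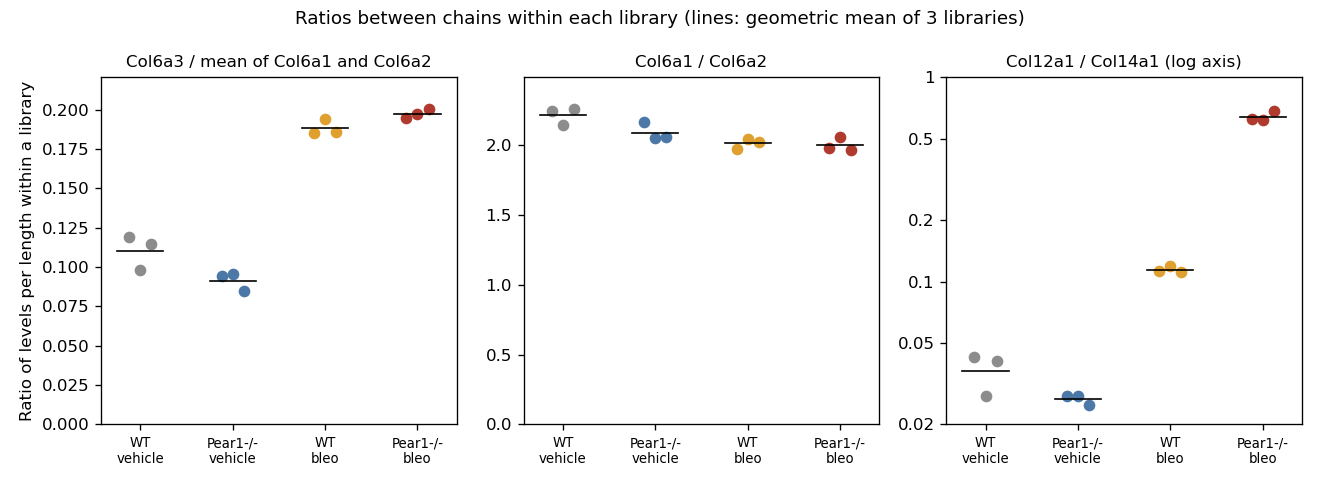
Ratios of levels per length within each of the 12 libraries, on linear axes for the collagen VI chains and a log axis for Col12a1 to Col14a1, with lines for the geometric mean of 3 libraries. Col6a3 relative to its partner chains lies between 0.185 and 0.201 in bleo and between 0.0845 and 0.119 in vehicle, Col6a1 to Col6a2 stays between 1.97 and 2.26, and Col12a1 to Col14a1 is highest in Pear1-/- bleo.

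Col12a1 and Col14a1 encode related fibril-associated collagens with long arms of fibronectin type III domains, and they moved apart. Col12a1 (ENSMUSG00000032332, chr9:79598991-79718831, minus strand) had normalized counts of 210, 166 and 206 (WT vehicle), 170, 161 and 147 (Pear1-/- vehicle), 328, 345 and 305 (WT bleo) and 885, 844 and 882 (Pear1-/- bleo). The bleo groups did not overlap each other or the vehicle groups. Its log2 fold change in edgeR was 0.76 for bleo in WT (SE 0.096 with adjusted p = 5.09e-06), 2.45 for bleo in Pear1-/- (SE 0.093 with adjusted p = 1.04e-11) and 1.40 between the bleo groups (SE 0.087 with adjusted p = 6.21e-09).

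Col14a1 (ENSMUSG00000022371, chr15:55307750-55520803, plus strand) was the one gene of the 8 lower in Pear1-/- bleo than in WT bleo by edgeR. Its normalized counts were 2251, 2788 and 2322 (WT vehicle), 2836, 2686 and 2722 (Pear1-/- vehicle), 1347, 1339 and 1254 (WT bleo) and 655, 631 and 597 (Pear1-/- bleo). The 2 bleo groups lay below the vehicle groups without overlap, and the Pear1-/- bleo libraries lay lowest. The log2 fold change was -0.89 for bleo in WT (SE 0.082 with adjusted p = 1.76e-07 in edgeR), -2.13 for bleo in Pear1-/- (SE 0.085 with adjusted p = 1.82e-11) and -1.08 between the bleo groups (SE 0.084 with adjusted p = 7.16e-08). The WT value was between -0.94 and -0.72 when any 1 library was left out, and -1.07, past a fold of 2, when replicate 2 stood alone for WT vehicle.

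Within a library, Col12a1 per length was 0.0429, 0.0275 and 0.0409 of Col14a1 for WT vehicle, 0.0277, 0.0277 and 0.0249 for Pear1-/- vehicle, 0.112, 0.119 and 0.112 for WT bleo and 0.622, 0.616 and 0.681 for Pear1-/- bleo. The ratio was 3.14-fold higher with bleo in WT and 23.9-fold higher in Pear1-/-, and was 5.60-fold higher in Pear1-/- bleo than in WT bleo, each without overlap and each with an exact permutation p = 0.1 (0.136 after adjustment). WT vehicle replicate 2 lay beside the Pear1-/- vehicle libraries in this ratio, and the vehicle groups overlapped.

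Col16a1 (ENSMUSG00000040690, chr4:130047840-130099283, plus strand), which encodes a fibril-associated collagen also found next to basement membranes and microfibrils, had normalized counts of 1003, 1000 and 959 (WT vehicle), 954, 917 and 1015 (Pear1-/- vehicle), 748, 666 and 685 (WT bleo) and 1992, 2033 and 1991 (Pear1-/- bleo). It was thus lowest in WT bleo and highest in Pear1-/- bleo, with vehicle between. The log2 fold change in edgeR was -0.49 for bleo in WT (SE 0.070 with adjusted p = 1.95e-05), 1.06 for bleo in Pear1-/- (SE 0.069 with adjusted p = 4.25e-09) and 1.51 between the bleo groups (SE 0.070 with adjusted p = 3.3e-10).

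Col7a1 (ENSMUSG00000025650, chr9:108953586-108984875, plus strand), with 118 coding exons, was the lowest of the 8 genes per length in every group. Its normalized counts were 99.4, 93.4 and 96.2 (WT vehicle), 90.0, 61.2 and 66.6 (Pear1-/- vehicle), 138, 118 and 129 (WT bleo) and 363, 411 and 402 (Pear1-/- bleo). The Pear1-/- bleo libraries were all above the other 9. Its log2 fold change was 0.43 for bleo in WT (SE 0.13 with adjusted p = 0.00921 in edgeR), 2.43 for bleo in Pear1-/- (SE 0.12 with adjusted p = 2.22e-10) and 1.60 between the bleo groups (SE 0.11 with adjusted p = 2.40e-08). Mir711 lies in an exon of Col7a1 on the same strand, so reads of both cannot be told apart.

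Col8a1 (ENSMUSG00000068196, chr16:57624258-57754737, minus strand) has only 2 coding exons. Its normalized counts were 175, 134 and 160 (WT vehicle), 87.1, 117 and 132 (Pear1-/- vehicle), 509, 458 and 470 (WT bleo) and 440, 424 and 393 (Pear1-/- bleo). All 6 bleo libraries were above all 6 vehicle libraries. The log2 fold change for bleo was 1.63 in WT (SE 0.12 with adjusted p = 1.7e-08 in edgeR) and 1.91 in Pear1-/- (SE 0.13 with adjusted p = 5.75e-09). Between the bleo groups the libraries did not overlap, but edgeR's difference of -0.21 did not pass (95% interval -0.44 to 0.03, adjusted p = 0.141). In 3 of the 20 other settings that difference passed an adjusted p of 0.05, and in 0 of them a fold of 2.

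**Figure D3:**
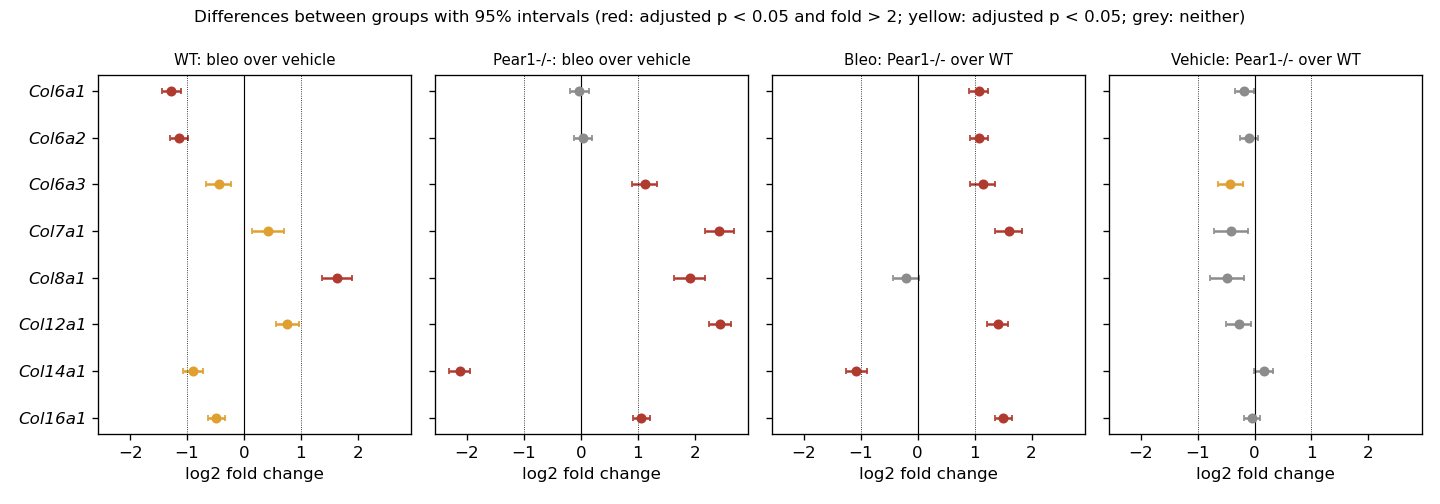
Log2 fold changes from edgeR with 95% intervals for the 8 genes in 4 comparisons, with dotted lines at a fold of 2; colours mark genes past both criteria, past the adjusted p alone, or past neither. In the libraries labelled Pear1-/-, Col6a1 and Col6a2 lie at 0 for bleo while Col7a1 and Col12a1 lie above 2, and between the vehicle groups no gene reaches a fold of 2.

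Whether the response to bleo differed between the genotypes was tested directly as an interaction, the log2 fold change of bleo in Pear1-/- minus that in WT. It passed both criteria for 7 of the 8 genes, 6 positive and 1 negative, beside 8.61% and 7.06% of all genes. The interaction was 1.25 for Col6a1, 1.17 for Col6a2, 1.56 for Col6a3, 2.01 for Col7a1, 1.68 for Col12a1, 1.55 for Col16a1 and -1.24 for Col14a1, with edgeR's adjusted p between 3.39e-08 and 1.49e-06. For Col8a1 it was 0.28, with a 95% interval from -0.10 to 0.66 and edgeR's adjusted p = 0.237. These values are on the normalized scale, and as ratios to Col1a1 within a library, which were not tested for an interaction, the sign turned for 5 of the 7 genes, all but Col7a1 and Col14a1. Col1a1 itself rose more with bleo in Pear1-/- than in WT, which lowers this value for any gene. The ratios were not computed over all genes.

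Counted over libraries, 6 of the 8 genes were higher and 2 lower in Pear1-/- bleo than in WT bleo with no overlap, beside 31.3% and 31.6% of all genes. For bleo against vehicle the counts without overlap were 3 higher and 5 lower in WT, beside 32% and 36.7%, and 5 higher and 1 lower in Pear1-/-, beside 33.2% and 37.8%. Between the vehicle groups 3 were lower in Pear1-/- without overlap, Col6a3, Col7a1 and Col8a1, and 0 were higher, beside 10.9% and 8.28%. Of these, the log2 fold change of Col6a3 was -0.42 (SE 0.10 with adjusted p = 0.0413 in edgeR), a call lost in 13 of 20 other settings, with -0.10 when replicate 2 stood alone for WT vehicle. The other genes had log2 fold changes between -0.49 and 0.16 and did not pass in edgeR. Of these, Col8a1 passed an adjusted p of 0.05 in 5 of the 20 other settings, Col6a1 and Col12a1 in 2 each, Col7a1 and Col14a1 in 1 each, and none of them a fold of 2. Without WT vehicle replicate 2, that of Col14a1 was 0.33 (adjusted p = 5.80e-06 in edgeR) in place of 0.16 (adjusted p = 0.193).

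Levels were compared between genes only per length, as counts per kilobase of annotated exon scaled to the same total in each library (TPM). The sum of the 8 genes was 1151 ± 228 TPM (SD, n = 3) for WT vehicle and 868 ± 38.5 for Pear1-/- vehicle. It was 621 ± 8.38 for WT bleo and 1132 ± 25.4 for Pear1-/- bleo. Col6a1 was first and Col6a2 second in every library. Col6a1 held 57.7% of the sum in the WT vehicle group, 56.0% in that of Pear1-/- vehicle, 50.2% in that of WT bleo and 53.3% in that of Pear1-/- bleo. In WT vehicle, Pear1-/- vehicle and WT bleo they were followed by Col14a1, Col6a3, Col16a1, Col8a1, Col12a1 and Col7a1. In WT vehicle the levels of Col6a3 and Col16a1 overlapped over the libraries, as did those of Col8a1 and Col12a1 and those of Col12a1 and Col7a1. In Pear1-/- vehicle Col6a3 and Col16a1 overlapped, as did Col8a1 and Col12a1. In Pear1-/- bleo the order after Col6a2 was Col6a3, Col16a1, Col14a1, Col12a1, Col8a1 and Col7a1, with Col12a1 and Col8a1 overlapping. Col14a1 thus went from 8.78% of the sum in WT bleo (8.38% to 9.04% over libraries) to 2.10% in Pear1-/- bleo (2.03% to 2.22%), while Col16a1 went from 4.86% to 6.98%. Col6a3 held 4.29% for WT vehicle, 3.54% for Pear1-/- vehicle, 6.68% for WT bleo and 7.44% for Pear1-/- bleo. These shares depend on the annotated exon length, which at 8326 bases for Col6a2 is much longer than its coding sequence of 3102 bases.

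The markers of other cells moved with the groups. The summed level of 18 leukocyte markers, all above 3 counts in at least 1 library of each group, was 3132 to 3529 CPM in the WT vehicle group, 3466 to 3558 in that of Pear1-/- vehicle, 20271 to 20347 in that of WT bleo and 8251 to 8449 in that of Pear1-/- bleo. That of 10 fibroblast markers, Pdgfra and Col1a1 among them, was 18532 to 19934, 18258 to 18576, 12688 to 12819 and 32894 to 33672 CPM in the same order. In the bleo groups most of this sum came from Col1a1, Col1a2 and Col3a1, so it does not measure the share of fibroblasts. The fibroblast list did not move as a whole. For bleo in Pear1-/- 2 of its 10 genes, Col1a1 and Col1a2, were higher by both criteria and 4 were lower, with a median log2 fold change of -0.49. The lower ones were Inmt (-2.94), Dcn (-2.41), Tcf21 (-1.38) and Lum (-1.33). For bleo in WT 0 were higher and 6 lower (median -1.43), and between the bleo groups 4 were higher and 0 lower (median 0.71). The 10 epithelial markers summed to 4729 to 6043, 5681 to 6491, 1613 to 1639 and 726 to 735 CPM, and 10 mural cell markers to 616 to 716, 586 to 642, 528 to 535 and 1435 to 1455 CPM. The 10 endothelial markers were at 591 to 669 CPM in vehicle and 321 to 352 CPM in bleo, and 7 mesothelial markers at 73.9 to 112 CPM in vehicle, 33.3 to 34.7 CPM in WT bleo and 56.2 to 57.5 CPM in Pear1-/- bleo. Of these 7, 3 were higher by both criteria in Pear1-/- bleo than in WT bleo and 0 lower, with a median of 0.66, the direction of the 6 higher collagen genes. WT bleo thus held the highest leukocyte sum and the lowest fibroblast sum, and it was the group in which Col6a1, Col6a2 and Col16a1 were lowest without overlap. Col6a3 also had its lowest mean there, overlapping Pear1-/- vehicle. Col14a1 was lowest where the epithelial sum was lowest. The members of some lists went both ways between the bleo groups. Of 9 epithelial markers tested 2 were lower by both criteria, Sftpc (a log2 fold change of -2.0) and Sftpb (-1.46), while Cdh1 (0.40) was higher by the adjusted p, with a median of -0.26. Of 10 mural markers 3 were higher by both criteria, Des (1.84), Acta2 (1.52) and Cnn1 (1.39), while Notch3 (-0.76) and Myh11 (-0.40) were lower by the adjusted p, with a median of 0.17. Of 18 leukocyte markers 10 were lower by both criteria, 17 by the adjusted p and 0 higher, with a median of -1.17. By both criteria, 6.26% of all genes were higher and 8.76% lower between the bleo groups. These shares were 10.5% and 23.5% for bleo in WT, and 8.38% and 19.4% for bleo in Pear1-/-. By the adjusted p alone 22.1% of all genes were higher between the bleo groups, and the share lower is not given here. The part of these other cells in the results was not tested.

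Against Pdgfra, which had 4565 ± 325, 4165 ± 39.1, 1360.1 ± 29.9 and 2392 ± 18.8 normalized counts (SD, n = 3) in the same order, the direction of bleo in WT turned for 5 genes. Pdgfra itself was lower after bleo, so a gene with unchanged counts has a higher ratio to it. Ratios to Pdgfra were not computed over all genes, so no share of all genes stands beside these. Relative to Pdgfra in the same library, WT bleo was higher than WT vehicle for Col6a1 (1.38-fold), Col6a2 (1.52-fold), Col6a3 (2.47-fold), Col14a1 (1.80-fold) and Col16a1 (2.37-fold), each of which was lower on the normalized scale. Col7a1, Col8a1 and Col12a1 were 4.45-fold, 10.3-fold and 5.65-fold higher relative to Pdgfra. In Pear1-/- the ratio to Pdgfra after bleo was 1.71-fold for Col6a1, 1.79-fold for Col6a2, 3.78-fold for Col6a3, 3.63-fold for Col16a1, 9.53-fold for Col7a1, 6.60-fold for Col8a1 and 9.50-fold for Col12a1. For Col14a1 it was 0.398-fold, so that on this scale bleo went with a higher ratio of Col14a1 in WT and a lower one in Pear1-/-. Between the bleo groups the ratio to Pdgfra kept the direction for all 7 genes that had passed, with 1.21-fold for both Col6a1 and Col6a2, 1.27-fold for Col6a3, 1.74-fold for Col7a1, 1.52-fold for Col12a1, 1.63-fold for Col16a1 and 0.272-fold for Col14a1. Col8a1 relative to Pdgfra was 0.497-fold, that is lower in Pear1-/- bleo. None of these ratios overlapped between the groups compared, and each had an exact permutation p = 0.1 (0.136 after adjustment).

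Col1a1, a chain of the collagen I fibrils on which several of these proteins sit, stood at 32386 ± 1005 normalized counts in the WT vehicle libraries and 31524 ± 2065 in those of Pear1-/- vehicle (SD, n = 3). After bleo it stood at 42471 ± 36.2 in WT and 142173 ± 3129 in Pear1-/-. A gene with unchanged counts thus has a lower ratio to Col1a1 after bleo, most of all in Pear1-/-. Ratios to Col1a1 were not computed over all genes either. Relative to Col1a1, WT bleo was lower than WT vehicle for the same 5 genes as on the normalized scale, Col6a1 (0.313-fold), Col6a2 (0.345-fold), Col6a3 (0.562-fold), Col14a1 (0.410-fold) and Col16a1 (0.539-fold), where the ratio to Pdgfra was higher. In Pear1-/- these 5 ratios to Col1a1 after bleo were 0.217-fold, 0.227-fold, 0.480-fold, 0.0506-fold and 0.462-fold in that order. These 10 comparisons were each without overlap (exact permutation p = 0.1, and 0.136 after adjustment). The ratio of Col12a1 to Col1a1 was 1.28-fold in WT and 1.21-fold in Pear1-/- after bleo, without overlap. That of Col7a1 was 1.01-fold and 1.21-fold, with overlap in both genotypes. For Col8a1 it was 2.35-fold in WT without overlap, but 0.839-fold in Pear1-/- with overlap. Between the bleo groups, relative to Col1a1, the 6 genes that were higher in Pear1-/- bleo than in WT bleo lay at 0.633-fold (Col6a1), 0.637-fold (Col6a2), 0.665-fold (Col6a3), 0.799-fold (Col12a1), 0.857-fold (Col16a1) and 0.914-fold (Col7a1). Of these ratios 5 did not overlap between the groups (exact permutation p = 0.1, and 0.136 after adjustment), and that of Col7a1 did (exact permutation p = 0.3, and 0.330 after adjustment). Col8a1 relative to Col1a1 was 0.261-fold and Col14a1 was 0.143-fold. The direction of the difference between the bleo groups thus turned with the reference for 5 of these 6 genes, while Col7a1 overlapped relative to Col1a1. Col14a1 was lower on all 3 scales.

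**Figure D4:**
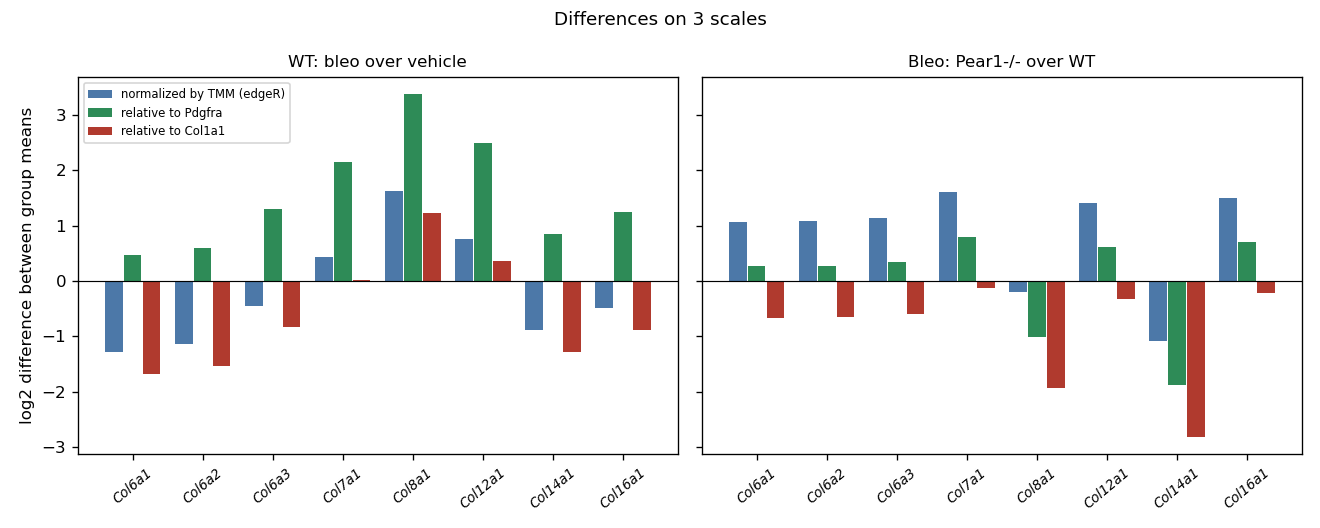
Log2 differences of the 8 genes between WT bleo and WT vehicle (left) and between Pear1-/- bleo and WT bleo (right), as edgeR's fold change and as ratios to Pdgfra and to Col1a1 within a library, as bars from 0. On the left all 8 genes are above 0 relative to Pdgfra, and on the right Col14a1 and Col8a1 are below 0 on every scale.

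Other collagen genes and partners were counted between the bleo groups by the same 2 criteria, on lists drawn up with earlier results of these data known. Of 11 fibrillar collagens 10 were tested, and 8 were higher and 1 lower in Pear1-/- bleo, with a median log2 fold change of 1.39. The largest differences among them were those of Col11a1 (2.47), Col5a3 (2.06) and Col1a1 (1.73). Of 14 further non-fibrillar collagens 8 were tested, with 1 higher, 2 lower and a median of -0.10. The higher one was Col8a2, the partner chain of Col8a1 in collagen VIII, which went from 70.5 ± 5.87 to 210 ± 18.2 normalized counts (SD, n = 3), or 1.56 on the log2 scale (adjusted p = 7.26e-06 in edgeR). The lower ones were the low-count collagen VI chains Col6a5 and Col6a6. Col6a5 had 4, 4 and 8 counts in WT bleo and 0 in each Pear1-/- bleo library, at least 1.96-fold lower against a floor of 3 counts per library. Its place past a fold of 2 thus rests on the counts of 0. Col6a6 had 9.50 ± 0.607 and 4.51 ± 0.970 normalized counts (SD, n = 3).

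Of 10 collagen receptors 1 was higher, Itga2, a collagen-binding integrin subunit with a log2 fold change of 1.76 from 11.5 ± 3.29 to 39.6 ± 6.34 normalized counts (SD, n = 3). Of 11 matrix proteins that bind these collagens 3 were higher and 1 lower. The 3 with the largest differences were Fmod (1.80), which encodes fibromodulin, a proteoglycan on fibrils, Tnc (1.34), which encodes tenascin C, and Lamb3 (-1.31), a chain of the laminin to which collagen VII binds. Of 12 collagen biosynthesis genes 4 were higher and 0 lower, and 8 were higher by the adjusted p alone, beside 22.1% of all genes. The 3 with the largest differences were P4ha3 (1.74), a prolyl hydroxylase subunit, Plod2 (1.04), a lysyl hydroxylase, and Pcolce (1.04), which enhances procollagen cleavage. These medians and counts stand beside a median of -0.01 and the 6.26% and 8.76% given above for all genes.

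The genes whose log2 normalized counts followed each of the 8 most closely over the 12 libraries were listed as a description, among 10703 genes whose mean log2 CPM was 3 or more. The libraries form 4 groups, so these Pearson correlations mostly compare group means. Col6a1 was closest to Mmp2 (r = 0.995), which encodes a gelatinase, Spon1 and Col6a2 (0.993). Col6a2 was closest to Igkv3-7, an immunoglobulin kappa variable gene, Rab34 and Parva. For Col6a3 they were Epha3 (0.989), Palld and 2310022B05Rik, and for Col16a1 they were Cttn (0.993), Gpx7 and Maged1. For Col7a1 they were Ryk (0.985), Hspb7 and Eln, the gene of elastin, and for Col12a1 they were Ppic (0.997), Tpm1 and Ereg, the gene of the growth factor epiregulin. For Col8a1 they were Wwp2 (0.995), Srek1ip1 and Arhgef10l. For Col14a1 they were Slc34a2 (0.998), Sftpa1 (0.997) and Ppp1r15a. Slc34a2, the phosphate transporter of alveolar type II epithelial cells, had mean normalized counts of 709 for WT vehicle, 810 for Pear1-/- vehicle, 330 for WT bleo and 131 for Pear1-/- bleo. Sftpa1, which encodes a surfactant protein of the same cells, had 3998, 4719, 1420 and 430. Among the 8 genes themselves, the correlation was 0.99 for Col6a1 with Col6a2, 0.98 for Col7a1 with Col12a1, 0.92 for Col6a3 with Col16a1 and -0.99 for Col12a1 with Col14a1.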

How the data were processed

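RNA was made into cDNA with a kit for small amounts and sequenced. Per the labels and the study's methods, reads were aligned to GRCm38 (mm10) with HISAT2; the counting program is not given in the sources used here. The authors deposited raw counts per gene and a signal table of the same counts divided by a size factor per library, here called normalized counts. Total counts were 6702948 to 10447101 per library. Floors cover counting error only. The intervals and SEs are from edgeR's fit and include the spread between libraries.

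Groups followed the deposited labels. Counts were tested with edgeR 4.0.16 (quasi-likelihood, TMM, filterByExpr, 1 mean per group over 12 libraries, two-sided, Benjamini-Hochberg over 17418 genes) in R 4.3.3, with DESeq2 1.42.0 and limma 3.58.1 (pseudocount 1) as alternatives. On simulated counts for the comparison of the bleo groups (16722 genes), 152 of 200 changed genes passed an adjusted p of 0.05, as did 12 others. All other genes had the same mean in the 4 groups. The data had 2617 genes past both criteria in this comparison, so these rates do not carry over to them. Ratios within libraries were compared by exact permutation tests (two-sided, smallest p 0.1). Where a symbol occurred more than once (38 symbols), the ID with the larger total was used. Exons came from GENCODE M21 (40452 IDs matched).

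The genes and lists were chosen with earlier results of these data known. All 8 genes were named in every comparison, and for each gene the 3 most similar genes. From each list of other collagens and partners, up to 3 of the largest differences past both criteria between the bleo groups were named. Cell type markers were named outside this rule, for lists whose members went both ways. Alternatives were other size factors, library totals, no filter, each library left out, a replicate block, 6 libraries, DESeq2 and limma; WT vehicle replicate 2 alone was added after seeing the data. The replicate numbers did not pair the libraries. Protein sequences and the promoters of Col12a1 and Col14a1 were not used here.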

Additional observations from a re-analysis of the deposited data

Results flagged for a closer look

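The response to bleo differed between the genotypes for 7 of the 8 genes by the interaction test, edgeR's quasi-likelihood test with Benjamini-Hochberg adjustment over 17418 genes. The interaction on the log2 scale was 1.25 for Col6a1, 1.17 for Col6a2, 1.56 for Col6a3, 2.01 for Col7a1, 1.68 for Col12a1, 1.55 for Col16a1 and -1.24 for Col14a1. For Col6a1 and Col6a2 normalized counts were lower in WT bleo than in WT vehicle, while bleo in Pear1-/- gave -0.03 and 0.04 on the log2 scale. For Col16a1 and Col6a3 the 2 genotypes moved in opposite directions on the normalized scale. Relative to Pdgfra all 4 genes were higher after bleo in both genotypes, 1.38-fold in WT and 1.71-fold in Pear1-/- for Col6a1, 1.52-fold and 1.79-fold for Col6a2, 2.47-fold and 3.78-fold for Col6a3 and 2.37-fold and 3.63-fold for Col16a1. Relative to Col1a1 all 4 were lower after bleo in both genotypes, 0.313-fold and 0.217-fold for Col6a1, 0.345-fold and 0.227-fold for Col6a2, 0.562-fold and 0.480-fold for Col6a3 and 0.539-fold and 0.462-fold for Col16a1. The lower value of Col6a3 in WT bleo did not pass when replicate 2 stood alone for WT vehicle (-0.12 with adjusted p = 0.125 in edgeR). On the normalized scale Col7a1, Col12a1 and Col14a1 moved in the same direction in both genotypes by different amounts. Relative to Pdgfra this did not hold for Col14a1, at 1.80-fold in WT and 0.398-fold in Pear1-/-. Each of these interactions passed both criteria in all of the 19 settings in which an interaction was computed, all on scales between libraries. Within libraries, the difference between the genotypes depended on the reference, and was not tested. Pdgfra itself was lower after bleo in both genotypes, and Col1a1 itself was higher, more so in Pear1-/-. Neither ratio was computed over all genes, so a turned sign may come from the reference. As a log2 difference of ratios to Pdgfra it was 0.31 for Col6a1, 0.23 for Col6a2, 0.61 for both Col6a3 and Col16a1, 1.1 for Col7a1, 0.75 for Col12a1 and -2.18 for Col14a1. With ratios to Col1a1 the sign turned for 5 of the 7 genes, at -0.53 for Col6a1, -0.60 for Col6a2, -0.23 for Col6a3, -0.22 for Col16a1 and -0.09 for Col12a1, and it stayed for Col7a1 (0.26) and Col14a1 (-3.02). Leukocyte and fibroblast markers differed between the bleo groups as well, and their part was not tested.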

How the results depend on the processing

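The counts of genes past both criteria, 7, 3, 6 and 0 for the 4 comparisons and 7 for the interaction, were within 1.5 times of these under the alternatives run. The replicate block changed no call of the 8 genes. The replicate numbers did not pair the libraries: 3 of 12 correlated best with their own number, with correlations from -0.15 to 0.10, and the block moved the count over all genes between the vehicle groups from 411 to 349. Over single genes, 157 of 160 values between the bleo groups, 159 of 160 for bleo in WT, 155 of 160 for bleo in Pear1-/- and all 152 of the interaction kept their direction and their side of an adjusted p of 0.05. Between the vehicle groups only 121 of 160 did, as 13 lost the call, 11 gained it and 15 changed sign. By both criteria 2 values changed side, both for bleo in WT, with Col6a2 at -0.996 with no filter and Col14a1 at -1.07 with replicate 2 alone as WT vehicle, where the spread comes from the other groups. Values near 0 changed sign. For bleo in Pear1-/-, Col6a1 was 0.030 with library totals alone and 0.025 with no filter, and -0.10 to 0.034 over left-out libraries, and Col6a2 was -0.031 to 0.11 over left-out libraries. Between the vehicle groups Col6a2 was 0.0092 and Col16a1 0.053 with no filter, Col6a2 was 0.023 and Col14a1 -0.022 with replicate 2 alone as WT vehicle, and left-out libraries gave -0.13 to 0.0079 for Col6a2, -0.060 to 0.042 for Col16a1 and 0.10 to 0.33 for Col14a1. Left-out libraries gave log2 ratios of -0.028 to 0.0036 for Col6a1 to Col6a2 between the bleo groups, -0.12 to 0.021 and -0.046 to 0.093 for Col6a1 and Col6a2 to Pdgfra and -0.015 to 0.032 for Col16a1 to Col1a1 between the vehicle groups, and -0.034 to 0.075 for Col7a1 to Col1a1 for bleo in WT. The cause was not tested.

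The background counts moved more. Between the vehicle groups 411 genes were called, against 810 with library totals, 2990 with no filter, 658 in DESeq2, 4939 without WT vehicle replicate 2, 1 with it alone, and 0 in edgeR without any 1 of the other 11 libraries (2955 to 6917 at an unadjusted p under 0.05) or with the 6 libraries alone (3091). Leaving out a library loosened the filter, so that 17644 to 20453 genes were tested. With no filter 13669 genes were called for bleo in WT (5910 otherwise) and 8019 in Pear1-/- (4847 otherwise), and without WT vehicle replicate 2 9192 for bleo in WT and 4468 for the interaction (2729 otherwise). Library totals alone shifted the median of all genes by over 0.1 for the vehicle groups (to -0.15) and the interaction (to 0.15), where 1834 genes were higher and 876 lower in place of 1500 and 1229.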
